A study of Mus musculus with 12 samples.

Results

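The interaction of busulfan and alginate oligosaccharides (AOS) in the mouse heart is a difference between differences. It is busulfan plus AOS minus busulfan, less AOS minus control, so a value above 0 means that the difference made by AOS was higher after busulfan than without it. It used all 12 libraries of the series, 3 in each of 4 groups, and 14687 of the 19246 genes in the table, those with enough counts to be tested. The busulfan plus AOS mice had received busulfan once at 40 mg/kg and afterwards AOS at 10 mg/kg for 5 weeks. The busulfan mice had received that busulfan dose alone, the AOS mice that course of AOS alone, and the control mice neither agent. All mice carry the strain label IRC, and the labels name no allele, age or sex. Busulfan is a DNA-alkylating drug used before bone marrow transplantation and to deplete germ cells. AOS are short sugar chains cut from the alginate of brown algae. The samples' tissue label reads Cells, while the protocol names heart tissue, and the cardiac muscle genes Myl2 and Actc1 lay between 2542 and 18054 and between 4982 and 11235 FPKM in all 12 libraries. The labels do not state whether each library came from its own heart or from pooled hearts, and the p-values therefore cover only the spread between these libraries, which may be technical.

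No gene had an AOS difference that changed with busulfan past the threshold. In edgeR's quasi-likelihood test, 0 of the 14687 genes passed a Benjamini-Hochberg adjusted p of 0.05 (0%), and the smallest adjusted p was 1. A positive interaction of any size was found in 6773 genes (46.1%), the share to set beside the list counts below. At an unadjusted p under 0.05 there were 432 genes (2.94%), 212 with a positive interaction (1.44% of all tested genes) and 220 with a negative one (1.5%). This count was 1049 when AOS replicate 2 was left out, and 968 and 284 when control replicates 3 and 2 were. DESeq2 called 5 genes at an adjusted p under 0.05 (0.034%), which are given with their values in each library below. Of the 212 genes with a positive interaction at an unadjusted p under 0.05, 15 belonged to the unfolded protein response, and the values on it that follow describe genes that did not pass over all genes.

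The unfolded protein response is the programme by which a cell matches its protein folding capacity to the load of the endoplasmic reticulum (ER). Sensors in the ER membrane detect unfolded protein and activate the transcription factors Xbp1, Atf6 and Atf4, which switch on genes for chaperones, disulfide isomerases and the machinery that sends misfolded protein to the proteasome. In the heart these genes serve muscle and non-muscle cells alike, and the ER chaperones also take part in calcium storage.

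Libraries differed widely in transcripts of tissue around the ventricle. The mean log2 CPM, that is counts scaled to the library total, of 12 atrial cardiomyocyte markers was 7.89, 5.98 and 7.12 in the busulfan plus AOS libraries, 2.21, 5.58 and 4.18 in the busulfan libraries, 2.86, 7.93 and 5.28 in the AOS libraries and 3.38, 6.21 and 3.85 in the control libraries. Their summed level was 3190 to 14800 FPKM in busulfan plus AOS hearts, 61.6 to 2620 in busulfan hearts, 83.5 to 14500 in AOS hearts and 353 to 8130 in control hearts, with Bmp10 at 0 in every control library. Busulfan plus AOS replicate 1 and AOS replicate 2 stood apart with the highest atrial levels and with 2060 and 5570 FPKM of summed lung and airway markers, against 1.71 to 314 in the other 10 libraries. In bulk tissue, fewer cells of a type and less RNA per cell cannot be told apart.

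Genes of the unfolded protein response were at their highest in busulfan plus AOS hearts. Of 21 tested members of a list of 22, 20 had a positive interaction and 15 did so at an unadjusted p under 0.05, which is 71.4% of the list beside 1.44% of all tested genes. None had a negative one at that p. The median interaction was 0.52 on the log2 scale, beside -0.03 over all tested genes. After busulfan the median AOS difference of the list was 0.50 and all 21 members lay above 0. Without busulfan it was -0.05 and 8 of 21 lay above 0. In 15 of the 21 the lowest busulfan plus AOS library lay above all 9 other libraries, which holds for 1.98% of all tested genes. The members belong to a shared pathway and were read in the same libraries, so they are not separate replicates. The list was chosen with earlier results of these data known, and these shares are a description only.

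**Figure D1:**
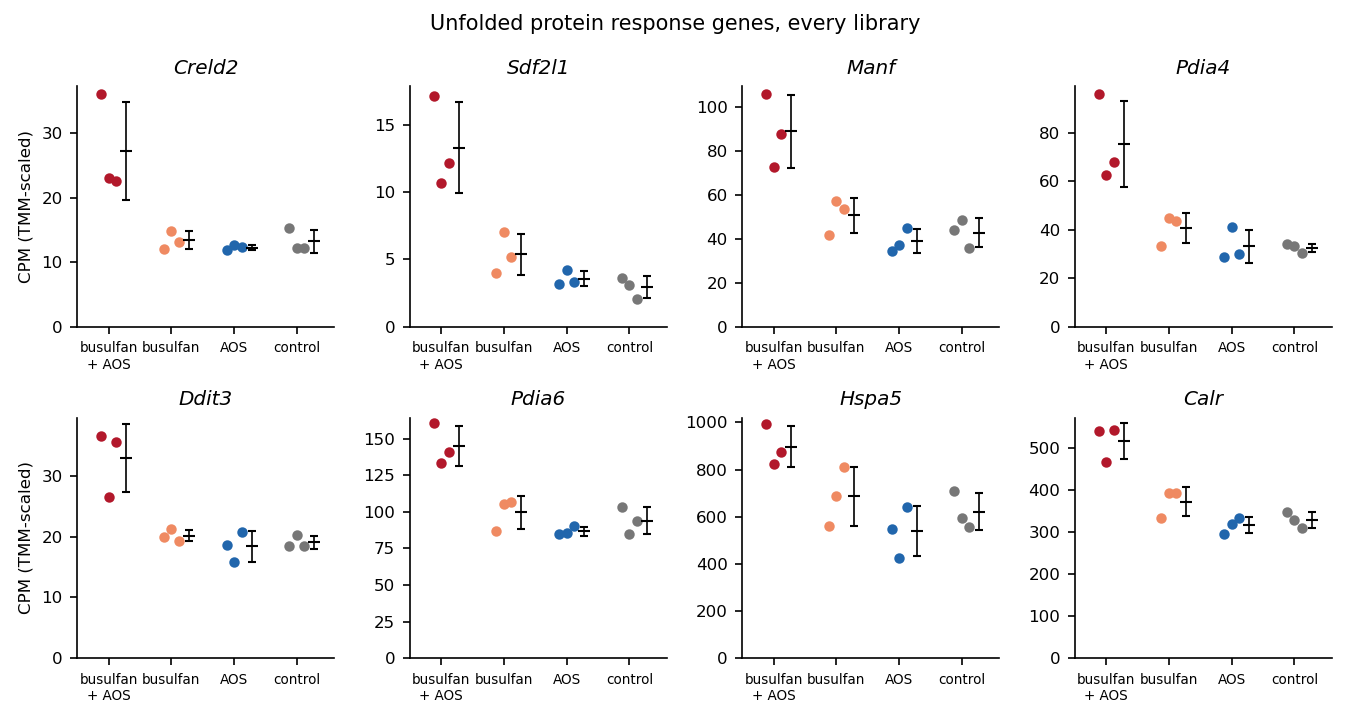
Expression of 8 genes of the unfolded protein response in each library, as TMM-scaled CPM, with busulfan plus AOS at the left, then busulfan, AOS and control. Points are libraries, and the dash and bar to their right are the mean and SD of the 3 libraries. In each panel the 3 busulfan plus AOS points lie above the other 9, by the smallest ratio for Hspa5.

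Creld2 and Manf, targets of the pathway that are secreted or stay in the ER, were among the members with the most positive interactions. Creld2 (chromosome 15, 88819646 to 88826681, GRCm38) encodes an ER-resident and secreted protein with disulfide isomerase activity. It was at 36.0, 23.1 and 22.6 CPM in busulfan plus AOS hearts, 12.1, 14.9 and 13.1 in busulfan hearts, 11.8, 12.6 and 12.4 in AOS hearts and 15.3, 12.2 and 12.2 in control hearts. The 9 libraries of the other groups lay within 11.8 to 15.3 CPM, and the lowest busulfan plus AOS library lay above them. Its interaction was 1.13 ± 0.26 SE (edgeR unadjusted p = 0.00132, adjusted p = 1), from an AOS difference of 1.03 after busulfan and -0.10 without it. Manf (chromosome 9, 106888753 to 106891938), a protein that binds the chaperone Hspa5 in the ER and is released under ER stress, was at 106, 73.0 and 88.0 CPM in busulfan plus AOS hearts, 41.8, 57.1 and 53.6 in busulfan hearts, 34.7, 37.5 and 45.2 in AOS hearts and 44.0, 48.9 and 36.0 in control hearts. No busulfan plus AOS library overlapped the rest, and the interaction was 0.94 ± 0.25 SE.

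All 3 disulfide isomerases of the list, enzymes that form and rearrange disulfide bonds in new proteins, had a positive interaction at an unadjusted p under 0.05. Pdia6 (chromosome 12, 17266589 to 17284785) was at 161, 134 and 141 CPM in busulfan plus AOS hearts, 86.7, 105 and 107 in busulfan hearts, 84.8, 85.3 and 90.4 in AOS hearts and 103, 85.0 and 93.6 in control hearts. Control hearts were a little above AOS hearts on average, busulfan hearts overlapped the control hearts, and the interaction was 0.66 ± 0.16 SE (edgeR unadjusted p = 0.00195). Pdia4 was at 95.9, 62.6 and 68.1 CPM in busulfan plus AOS hearts, 33.5, 44.8 and 43.5 in busulfan hearts, 28.8, 41.1 and 29.9 in AOS hearts and 34.0, 33.1 and 30.6 in control hearts, with an interaction of 0.86 ± 0.27 SE. Pdia3, which folds glycoproteins held by calreticulin and calnexin, was at 478, 364 and 415 CPM in busulfan plus AOS hearts and at 218 to 316 CPM in the other 9, with an interaction of 0.63 ± 0.21 SE. All 3 genes therefore had their 3 highest libraries in the busulfan plus AOS group.

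Among the 9 chaperones and cochaperones, 9 had a positive interaction and 6 at an unadjusted p under 0.05, and in 7 the busulfan plus AOS libraries lay above all others. Sdf2l1, a cofactor of Hspa5, was at 17.1, 10.7 and 12.1 CPM in busulfan plus AOS hearts, 4.01, 7.02 and 5.16 in busulfan hearts, 3.16, 4.25 and 3.34 in AOS hearts and 3.63, 3.12 and 2.06 in control hearts. The busulfan libraries overlapped the AOS libraries, and the interaction was 1.01 ± 0.40 SE. Hspa5, also called BiP, the main ER chaperone and the brake on the sensors, was at 992, 823 and 872 CPM in busulfan plus AOS hearts, 560.4, 689 and 812 in busulfan hearts, 549, 427 and 642 in AOS hearts and 709, 596 and 557 in control hearts. The gap was small, as busulfan replicate 3 came close to the lowest busulfan plus AOS library, and the interaction was 0.59 ± 0.26 SE (edgeR unadjusted p = 0.0489). Calr, the lectin chaperone and calcium store calreticulin, was at 540.1, 467 and 541 CPM in busulfan plus AOS hearts, 332, 392 and 392 in busulfan hearts, 295, 320.1 and 332 in AOS hearts and 346, 329 and 308 in control hearts, with an interaction of 0.53 ± 0.16 SE. Hsp90b1, the ER form of Hsp90, was at 819, 699.8 and 713 CPM in busulfan plus AOS hearts and at 459 to 654 CPM in the others (interaction 0.46 ± 0.17 SE). Hyou1, a large ER chaperone that also exchanges the nucleotide of Hspa5, and Dnajb11, an Hspa5 cochaperone, had interactions of 0.45 and 0.37. The 3 that missed an unadjusted p of 0.05 were Dnajc3 (0.37 ± 0.26 SE), Dnajb9 (0.16 ± 0.17 SE) and calnexin, Canx (0.06 ± 0.18 SE). Canx, the membrane-bound partner of calreticulin, was at 422, 479.7 and 423 CPM in busulfan plus AOS hearts and at 329 to 472 CPM in the other 9 libraries, so these groups overlapped.

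The 4 genes of ER-associated degradation were split. Syvn1, the ubiquitin ligase Hrd1 of this pathway, was at 63.1, 51.8 and 45.4 CPM in busulfan plus AOS hearts, 30.9, 36.2 and 31.4 in busulfan hearts, 25.2, 30.4 and 30.1 in AOS hearts and 23.8, 27.9 and 27.0 in control hearts. Its interaction was 0.58 ± 0.19 SE, and no busulfan plus AOS library overlapped the others. Herpud1, a membrane component of the same complex, was at 201, 218 and 208 CPM in busulfan plus AOS hearts, 204, 154 and 173 in busulfan hearts, 177, 157 and 159.9 in AOS hearts and 205, 204 and 191 in control hearts, with an interaction of 0.52 ± 0.16 SE. Here the AOS difference was 0.24 after busulfan and -0.28 without it, so much of the interaction lay in the pair without busulfan. Edem1, which trims glycans of proteins bound for degradation, and Sel1l, the adaptor of Syvn1, had interactions of 0.34 ± 0.25 SE and -0.06 ± 0.19 SE and missed an unadjusted p of 0.05.

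Of the transcription factors of the pathway, Ddit3 (CHOP), the factor of prolonged ER stress, had the most positive interaction. It was at 36.5, 26.4 and 35.6 CPM in busulfan plus AOS hearts, 20.0, 21.2 and 19.3 in busulfan hearts, 18.7, 15.7 and 20.7 in AOS hearts and 18.4, 20.3 and 18.4 in control hearts. The other 9 libraries stayed within 15.7 to 21.2 CPM, and the interaction was 0.76 ± 0.20 SE (edgeR unadjusted p = 0.0034). Atf4, which acts upstream of Ddit3, was at 148, 114 and 113 CPM in busulfan plus AOS hearts, 98.8, 112 and 122 in busulfan hearts, 85.1, 85.0 and 94.5 in AOS hearts and 102, 104 and 102 in control hearts, with an interaction of 0.39 ± 0.17 SE. Its AOS difference was 0.18 after busulfan, where the libraries overlapped. Without busulfan it was -0.22, with all AOS libraries below all control libraries, so much of the interaction lay in that pair. Xbp1, whose messenger RNA is spliced by the sensor Ire1, was at 132, 104 and 113 CPM in busulfan plus AOS hearts, 70.8, 90.0 and 86.3 in busulfan hearts, 60.5, 80.0 and 67.4 in AOS hearts and 65.7, 67.4 and 60.4 in control hearts. Its busulfan plus AOS libraries lay above all others, while its interaction of 0.40 ± 0.19 SE had an edgeR unadjusted p of 0.0638. Busulfan hearts stood at a higher Xbp1 level than control hearts in all 3 libraries, and gene counts do not show splicing.

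**Figure D2:**
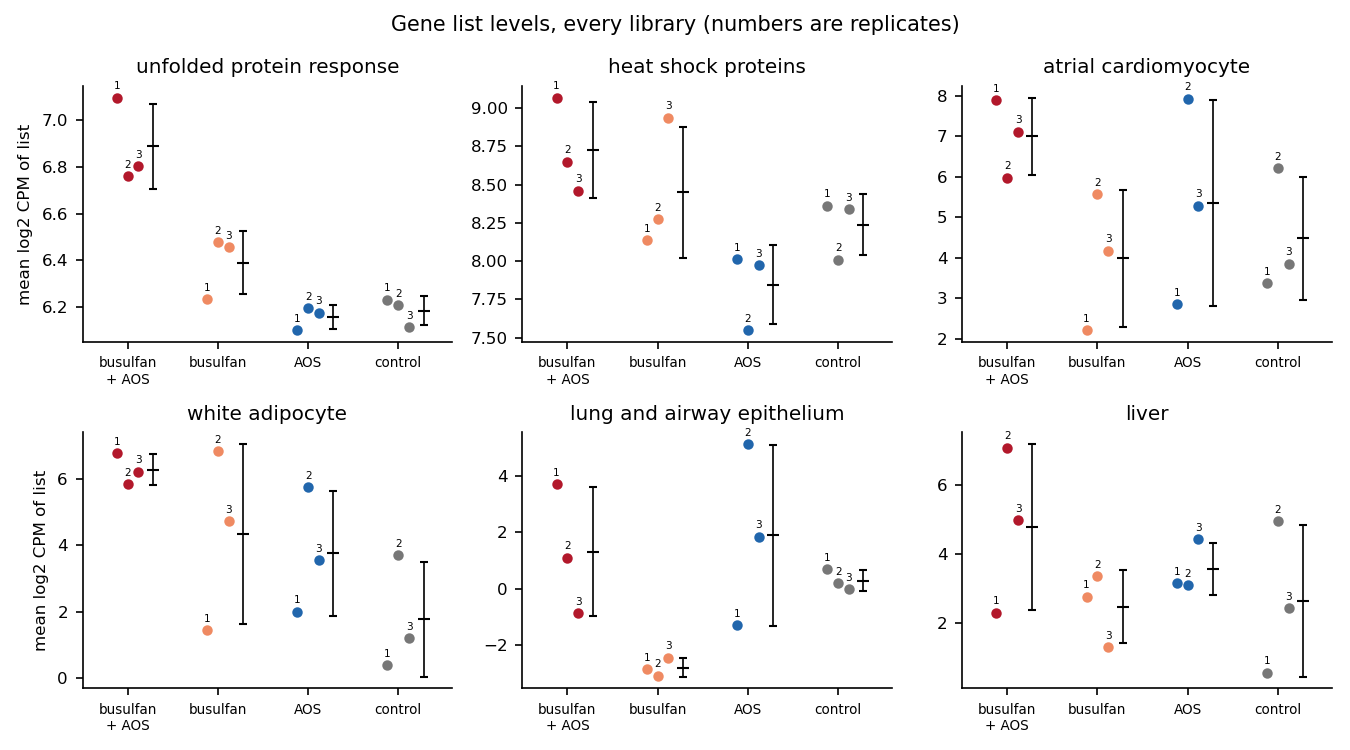
Mean log2 CPM of the tested members of 6 gene lists in each library, with busulfan plus AOS at the left, then busulfan, AOS and control, and the replicate number above each point. The dash and bar show mean and SD of the 3 libraries. For the unfolded protein response the busulfan plus AOS libraries (6.76 to 7.10) lie above the other 9 (6.10 to 6.48). AOS replicate 2 has the highest atrial and airway marker levels and an unfolded protein response level of 6.20.

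As a list, the unfolded protein response had a mean log2 CPM of 7.10, 6.76 and 6.80 in the busulfan plus AOS libraries, 6.23, 6.48 and 6.46 in the busulfan libraries, 6.10, 6.20 and 6.17 in the AOS libraries and 6.23, 6.21 and 6.11 in the control libraries. The busulfan plus AOS libraries lay above all others, busulfan replicates 2 and 3 came next, and AOS and control libraries overlapped. Markers of other cells moved with this order in part. Busulfan plus AOS replicate 1, the highest library of the list, was the second highest in atrial markers. AOS replicate 2, the highest in atrial markers with 7.93, was at 6.20 in the list, within the range of the other AOS and control libraries (6.10 to 6.23). White adipocyte markers were at 6.78, 5.84 and 6.22 in the busulfan plus AOS libraries, 1.45, 6.83 and 4.72 in the busulfan libraries, 2.01, 5.75 and 3.55 in the AOS libraries and 0.41, 3.71 and 1.21 in the control libraries. Busulfan replicate 2 had the highest adipocyte level of all libraries and 6.48 in the list. With the atrial marker level of each library as a covariate the median interaction was 0.45 with 12 members at an unadjusted p under 0.05. With the adipocyte level it was 0.53 with 16. Over 25 alternative settings the list median stayed between 0.40 and 0.55. The members at an unadjusted p under 0.05 numbered 10 without busulfan plus AOS replicate 1 and 10 without busulfan replicate 1. What part other cells had in the level of the list was not tested.

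Promoters of some of these genes hold the element through which the pathway is known to act, and they are shown for that reason. The ER stress response element (ERSE) is CCAAT, then any 9 bases, then CCACG. It is bound at its left end by the factor NF-Y and at its right end by Atf6 or Xbp1. It was searched on both strands of RefSeq promoter windows of GRCm38.p6, each from 250 bases before to 50 bases after a gene start. It was found in 8 of the 19 tested list members with a window (42.1%), beside 39 of 32851 windows (0.119%) and 18 of 11194 tested genes with a window (0.161%). The element was defined in promoters of such genes, so this share describes the list and is no independent result. The 9 sites of the 8 genes are printed in the direction of the element, with both fixed ends in capitals.
Creld2: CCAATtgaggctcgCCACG
Pdia6: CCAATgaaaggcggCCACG
Calr: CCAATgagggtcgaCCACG
Syvn1: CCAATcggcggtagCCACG
Hspa5: CCAATcggaggcctCCACG
Hsp90b1, nearer to the start: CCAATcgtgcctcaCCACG
Hsp90b1, farther from the start: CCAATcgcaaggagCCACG
Dnajc3: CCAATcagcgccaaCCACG
Canx: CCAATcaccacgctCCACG
The last pair, Dnajc3 and Canx, had the element and no unadjusted p under 0.05. Of the 8 genes with this exact element 6 were at an unadjusted p under 0.05, with a median interaction of 0.55. Of the 11 list members without it 7 were, with a median of 0.40. Variants of the element were not searched, so these 11 may hold other forms of it.

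Whole windows are given for Creld2 and Pdia6, which had the smallest p of the members with an element, and for Hsp90b1, which holds 2 sites. Each runs 5′ to 3′ on the strand of the gene, with the ERSE in capitals.
Creld2, chr15:88819396-88819695, plus strand: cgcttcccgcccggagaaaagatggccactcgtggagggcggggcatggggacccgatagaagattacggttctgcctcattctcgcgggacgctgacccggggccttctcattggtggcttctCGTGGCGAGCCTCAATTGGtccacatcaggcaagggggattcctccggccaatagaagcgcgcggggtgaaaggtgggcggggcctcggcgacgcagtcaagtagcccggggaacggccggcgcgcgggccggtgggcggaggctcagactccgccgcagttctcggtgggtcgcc
Pdia6, chr12:17266339-17266638, plus strand: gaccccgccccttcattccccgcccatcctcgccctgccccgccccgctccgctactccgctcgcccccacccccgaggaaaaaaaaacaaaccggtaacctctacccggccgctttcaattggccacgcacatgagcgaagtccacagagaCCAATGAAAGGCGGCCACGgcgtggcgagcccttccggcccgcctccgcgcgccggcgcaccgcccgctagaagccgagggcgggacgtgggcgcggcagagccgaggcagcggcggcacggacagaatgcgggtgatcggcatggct
Hsp90b1, chr10:86705395-86705694, minus strand: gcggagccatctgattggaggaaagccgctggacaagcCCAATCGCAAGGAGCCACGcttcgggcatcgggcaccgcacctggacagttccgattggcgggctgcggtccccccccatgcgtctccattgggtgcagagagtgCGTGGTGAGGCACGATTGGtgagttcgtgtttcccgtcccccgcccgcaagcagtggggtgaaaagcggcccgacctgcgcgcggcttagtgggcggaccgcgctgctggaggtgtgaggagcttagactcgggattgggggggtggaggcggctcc
The Creld2 site (chr15:88819520-88819538) also lies in the window of Alg12, a mannosyltransferase of N-glycan assembly transcribed from the opposite strand, which was chosen after its values were seen. Mean Alg12 was 9.28 CPM in busulfan plus AOS hearts, 8.08 in busulfan hearts, 8.28 in AOS hearts and 10.8 in control hearts, and its interaction was 0.58 ± 0.24 SE (edgeR unadjusted p = 0.034). Most of it came from the AOS difference without busulfan (-0.38), in contrast to Creld2. Of the 10 tested genes outside the list with an element, 6 had a positive interaction and 2, Alg12 among them, were at an unadjusted p under 0.05. Over all tested genes 2.94% were at that p. The median of the 10 genes was 0.13, with values from -0.34 to 5.83. The right end of the element alone, CCACG, was in 16 of the 19 windows of the list (84.2%) and in 32.8% of all windows. Of the tested genes with a window, 50.3% had it in any of their windows. Further motifs of stress factors, TGACGTGG and TGACGTCA, likewise searched on both strands, were in 0 of the 19 windows of the list. They were in 0.676% and 1.79% of all windows, and in any window of 1% and 3.33% of the tested genes with a window.

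**Figure D3:**
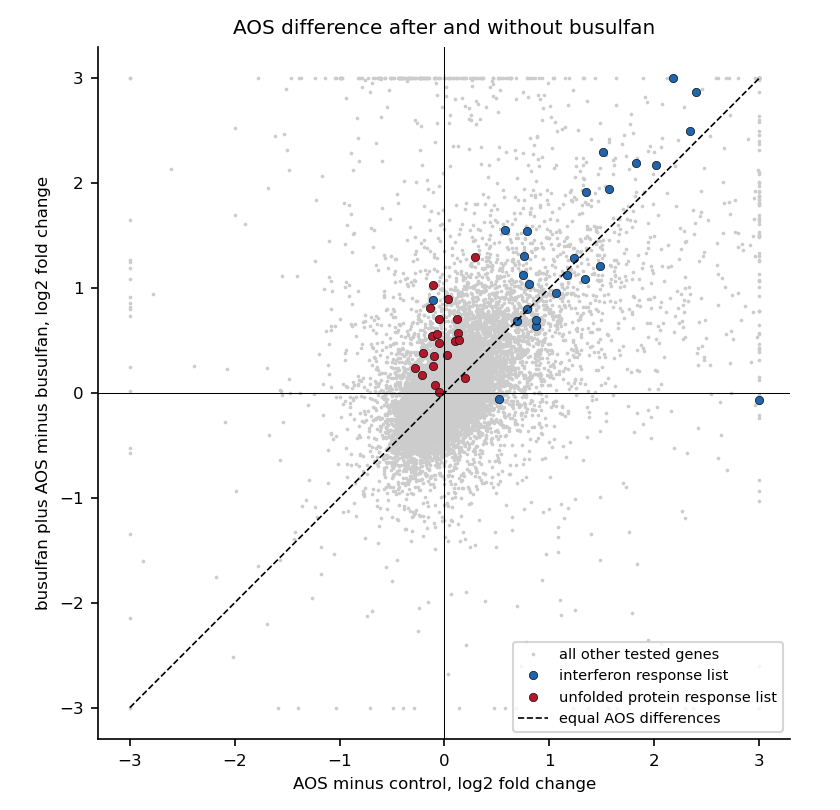
Log2 fold change of busulfan plus AOS over busulfan (vertical) against that of AOS over control (horizontal) for 14687 tested genes, with the lists of the unfolded protein response and the interferon response in colour. The dashed line marks equal differences, that is an interaction of 0, and values beyond 3 are drawn at 3 (296 genes). Unfolded protein response genes lie near 0 on the horizontal axis and above 0 on the vertical one, while most interferon genes lie above 0 on both.

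In heat shock proteins, chaperones found mainly in the cytosol, both pairs contributed to the interaction. Of 20 tested members 18 had a positive interaction (90%, beside 46.1% of all tested genes), and the list median was 0.46. Only 1 was at an unadjusted p under 0.05 (5%, beside 1.44%). The median AOS difference was 0.21 after busulfan, with 12 members above 0, and -0.32 without busulfan, with 1 above 0. Hspb1, a small heat shock protein of muscle, was at 776, 389 and 398 CPM in busulfan plus AOS hearts, 307, 246 and 419 in busulfan hearts, 256, 184 and 224 in AOS hearts and 448, 338 and 332 in control hearts. The highest library was busulfan plus AOS replicate 1, all AOS libraries lay below all control libraries, and the interaction was 1.44 ± 0.41 SE (edgeR unadjusted p = 0.00491). The list's mean log2 CPM was 9.07, 8.65 and 8.46 in the busulfan plus AOS libraries, 8.14, 8.28 and 8.94 in the busulfan libraries, 8.01, 7.55 and 7.97 in the AOS libraries and 8.36, 8.01 and 8.34 in the control libraries, so busulfan replicate 3 stood among the busulfan plus AOS libraries. The heat shock element was searched as GAA, TTC and GAA with any 2 bases between them. It was found in 4 of 16 list members with a window, in 0.581% of tested genes with a window and in 0.603% of all windows. The list median ranged from 0.14 to 0.71 over 25 alternatives.

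Immediate early genes, which cells switch on within minutes of a stimulus and many of which encode transcription factors, had a median interaction of 0.55. Of 19 members 15 were above 0 (78.9%, beside 46.1% of all tested genes). At an unadjusted p under 0.05 were 5, all with a positive interaction (26.3%, beside 1.44%). Egr1 was at 285, 232 and 50.2 CPM in busulfan plus AOS hearts, 14.5, 39.6 and 53.9 in busulfan hearts, 41.1, 84.7 and 60.2 in AOS hearts and 30.5, 90.0 and 77.3 in control hearts, and its interaction was 2.48 ± 0.91 SE. Egr2 was at 45.1, 20.7 and 5.12 CPM in busulfan plus AOS hearts, 1.83, 5.78 and 2.19 in busulfan hearts, 3.16, 4.53 and 4.51 in AOS hearts and 2.38, 6.42 and 3.92 in control hearts, with an interaction of 2.91 ± 0.98 SE. In both genes busulfan plus AOS replicates 1 and 2 were above the other 10 libraries, and replicate 3 lay among or close to them. Ier2, a nuclear early response protein, was at 25.9, 21.6 and 17.5 CPM in busulfan plus AOS hearts, 9.68, 10.6 and 11.6 in busulfan hearts, 13.8, 18.7 and 19.6 in AOS hearts and 14.5, 22.6 and 17.1 in control hearts. Its busulfan libraries were the lowest of the 12, and its interaction was 1.09 ± 0.29 SE (edgeR unadjusted p = 0.00328). Junb and Jund, members of the AP-1 family chosen after their values were seen, had interactions of 1.16 and 0.54. The list median was 0.14 without busulfan plus AOS replicate 1, 0.19 with the atrial covariate and at most 0.83 over 25 alternatives.

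Inflammatory cytokines and adhesion molecules had a positive interaction in 12 of 14 tested members (85.7%, beside 46.1% of all tested genes). Of these members 2 were at an unadjusted p under 0.05 (14.3%, beside 1.44%), and the list median was 0.61. The median AOS difference of the list was 0.96 after busulfan and 0.32 without it. Ccl2, which attracts monocytes, was at 5.31, 4.48 and 5.88 CPM in busulfan plus AOS hearts, 2.35, 1.62 and 1.84 in busulfan hearts, 2.17, 0.836 and 2.34 in AOS hearts and 2.38, 2.26 and 1.57 in control hearts. All 3 busulfan plus AOS libraries lay above the other 9, and the interaction was 1.65 ± 0.53 SE (edgeR unadjusted p = 0.0097). Cxcl10, an interferon-induced chemokine for T cells, was at 5.38, 2.39 and 4.12 CPM in busulfan plus AOS hearts, 0.436, 0.694 and 0 in busulfan hearts, 0, 0.209 and 0.167 in AOS hearts and 0.113, 0.694 and 0.294 in control hearts. The other 9 libraries were at 0.694 CPM or less, and its interaction was 4.81 ± 1.42 SE. Macrophage and monocyte markers summed to 677 to 874 FPKM in busulfan plus AOS hearts, 337 to 543 in busulfan hearts, 337 to 747 in AOS hearts and 333 to 381 in control hearts. Of 15 tested markers 10 had a positive interaction (66.7%, beside 46.1% of all tested genes), with a median of 0.24 and none at an unadjusted p under 0.05. Their part in the cytokine values was not tested, and with the atrial covariate the cytokine median was 0.55.

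Interferon response genes took another shape with all 12 libraries, with AOS differences of like size in both pairs. Their median AOS difference was 1.21 after busulfan and 1.17 without it, and 23 and 24 of 25 members were above 0. The median interaction was 0.16, with 16 of 25 above 0 (64%, beside 46.1% of all tested genes), and the median was below 0 in 4 of 25 alternatives. It was 0.96 without AOS replicate 2 and 1.03 in limma-voom with library weights. The like size of the 2 differences therefore depended on that library and on the setting. The list's mean log2 CPM was 4.43, 4.78 and 6.01 in the busulfan plus AOS libraries, 3.32, 4.43 and 3.50 in the busulfan libraries, 3.05, 5.09 and 3.70 in the AOS libraries and 3.00, 2.86 and 3.08 in the control libraries. Busulfan plus AOS replicate 3 and AOS replicate 2 were the highest, and AOS replicate 1 lay within the control range. Trim25, a ubiquitin ligase that activates the RNA sensor Rig-I, was the only member at an unadjusted p under 0.05 (4%). Its interaction was negative (-4.07 ± 1.34 SE), as in 1.5% of all tested genes at that p. It was at 0.465, 0.618 and 0.840 CPM in busulfan plus AOS hearts, 0.610, 0.694 and 0.699 in busulfan hearts, 21.5, 2.51 and 1.25 in AOS hearts and 0.340, 0.781 and 0.392 in control hearts, so AOS replicate 1 was far above the other 11.

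**Figure D4:**
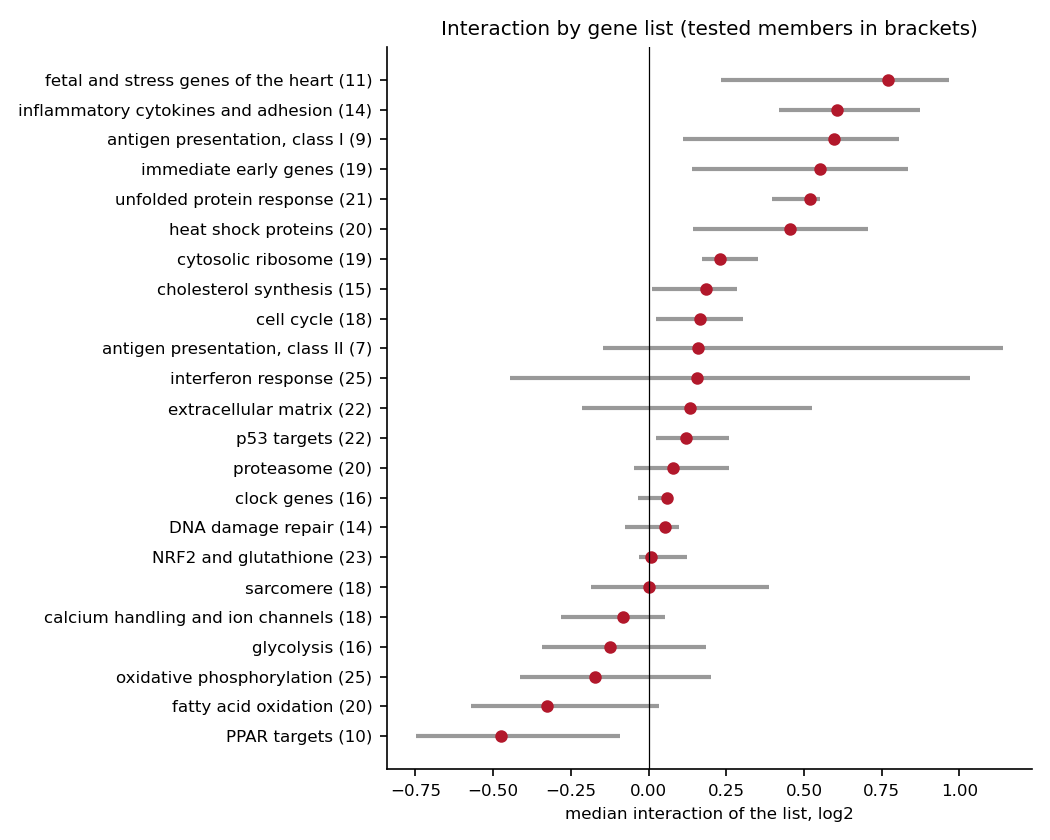
Median interaction (log2) of the tested members of 23 gene lists, with the number of tested members in brackets. Points are the values from all 12 libraries and grey lines span 25 alternative settings, among them the removal of each library. The unfolded protein response list (0.52) has a range of 0.40 to 0.55, and the interferon list (0.16) one of -0.45 to 1.03.

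Lists of heart muscle had few members at an unadjusted p under 0.05. Fetal and stress genes of the heart had a positive interaction in 10 of 11 tested members (90.9%, beside 46.1% of all tested genes). The list median was 0.77, with a median AOS difference of 0.58 after busulfan and -0.23 without it. Nppb, the natriuretic peptide BNP, was the only member at an unadjusted p under 0.05 (9.09%, beside 1.44% of all tested genes with a positive interaction at that p). It was at 9.89, 2.01 and 5.88 CPM in busulfan plus AOS hearts, 2.44, 1.23 and 1.40 in busulfan hearts, 4.06, 3.48 and 2.42 in AOS hearts and 4.20, 10.8 and 4.31 in control hearts. The groups overlapped, control replicate 2 was the highest library, and the interaction was 2.77 ± 0.80 SE. Nppa stands on this list and on that of the atrial markers, and with the atrial marker level as a covariate the list median was 0.67. Without busulfan plus AOS replicate 1 it was 0.23. Sarcomere genes had a median interaction of 0.00, with 9 of 18 on each side. Oxidative phosphorylation genes had a negative interaction in 23 of 25 members (8% positive, beside 46.1% of all tested genes), with none at an unadjusted p under 0.05. Their median was -0.17, and it was above 0 with the atrial covariate and without busulfan plus AOS replicate 1. Fatty acid oxidation genes had a negative interaction in 19 of 20 members (5% positive, beside 46.1%), with a median of -0.33 that was 0.03 with the atrial covariate. Ventricular markers summed to 3810 to 14600 FPKM in busulfan plus AOS hearts, 13800 to 20400 in busulfan hearts, 6600 to 22000 in AOS hearts and 20700 to 26100 in control hearts.

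The exception among fatty acid oxidation genes was Acadl, the long-chain acyl-CoA dehydrogenase, with the most positive interaction of all tested genes in edgeR. It was at 74.7, 3.24 and 0.229 CPM in busulfan plus AOS hearts, 0.0872, 0.231 and 0.612 in busulfan hearts, 0.541, 0.209 and 0 in AOS hearts and 1.13, 139.6 and 11.96 in control hearts. The value rested on busulfan plus AOS replicate 1 and control replicate 2, with lower levels in 1 other library of each of these groups. Its interaction was 14.03 ± 3.27 SE (DESeq2 adjusted p = 0.000841, edgeR adjusted p = 1). It was 10.1 when busulfan plus AOS replicate 1 was left out and 11.1 when control replicate 2 was. Of the 20 fatty acid oxidation genes no other had an unadjusted p under 0.05. The list's mean log2 CPM was 8.1 to 9.3 over the 12 libraries, far above the Acadl level in most of them. How reads were assigned to Acadl is not given. Whether its counts reflect the level of the gene was not tested.

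Lists tied to DNA damage and to redox balance lay near 0. The 22 tested p53 targets had a median interaction of 0.12, with 14 above 0 (63.6%, beside 46.1% of all tested genes). At an unadjusted p under 0.05 was 1, with a positive interaction (4.55%, beside 1.44%). That gene was Bbc3 (Puma), which promotes cell death, at 2.99, 3.86 and 4.05 CPM in busulfan plus AOS hearts, 2.70, 2.24 and 1.84 in busulfan hearts, 1.90, 2.30 and 2.00 in AOS hearts and 2.49, 2.86 and 2.25 in control hearts, with an interaction of 0.98 ± 0.36 SE. DNA damage repair genes had a median of 0.05 and none of 14 at that p. Among 18 cell cycle genes 1 was at that p, with a positive interaction (5.56%, beside 1.44%). This was Mcm2, a subunit of the replicative helicase, at 10.2, 9.04 and 9.31 CPM in busulfan plus AOS hearts, 6.36, 7.87 and 4.81 in busulfan hearts, 6.59, 7.66 and 8.27 in AOS hearts and 8.39, 9.03 and 6.96 in control hearts, with an interaction of 0.70 ± 0.27 SE. Among 23 genes of the NRF2 and glutathione system, whose median was 0.01, 1 was at that p with a positive interaction (4.35%, beside 1.44%). This was the metallothionein Mt2, with an interaction of 1.30 ± 0.48 SE. Its control replicate 2, at 34.6 CPM, was the highest of the 12 libraries. Cytosolic ribosome genes had a positive interaction in 18 of 19 members (94.7%, beside 46.1% of all tested genes), with a median of 0.23 and none at an unadjusted p under 0.05.

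**Figure D5:**
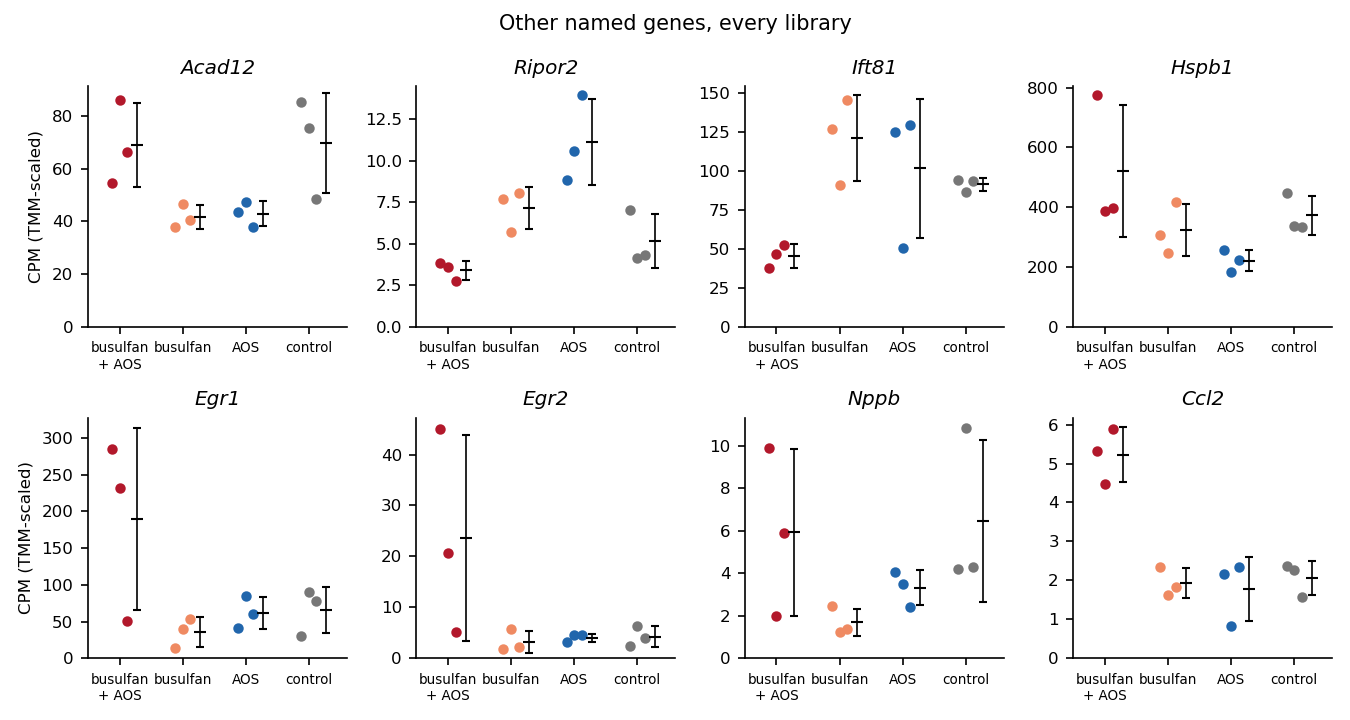
Expression of 8 further genes in each library as TMM-scaled CPM, with busulfan plus AOS at the left, then busulfan, AOS and control. Points are libraries, and the dash and bar are mean and SD of the 3 libraries. In Ripor2 AOS libraries are the highest and busulfan plus AOS libraries the lowest, in Ift81 busulfan plus AOS libraries lie below all others except AOS replicate 2, and in Ccl2 busulfan plus AOS libraries lie above the other 9.

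Of the 12 genes with the smallest p among positive interactions, 3 had AOS differences that ran in opposite directions without overlap in either pair. Over all tested genes this pattern held for 18 with a positive interaction (0.123%) and 25 with a negative one (0.17%). Among the 432 genes at an unadjusted p under 0.05 it held for 9.49%. A choice by the interaction p favours the pattern, so the 3 genes are a description only. Acad12 (chromosome 5, 121598277 to 121618938), an acyl-CoA dehydrogenase, was at 54.4, 86.0 and 66.2 CPM in busulfan plus AOS hearts, 37.8, 46.6 and 40.4 in busulfan hearts, 43.6, 47.2 and 37.8 in AOS hearts and 85.2, 75.5 and 48.6 in control hearts. Its AOS difference was 0.72 after busulfan and -0.70 without it, and its interaction was 1.43 ± 0.30 SE (edgeR unadjusted p = 0.00071, DESeq2 adjusted p = 0.0306). Hr, a nuclear corepressor, was at 35.5, 34.1 and 33.2 CPM in busulfan plus AOS hearts, 29.6, 31.0 and 30.5 in busulfan hearts, 21.4, 21.7 and 18.9 in AOS hearts and 27.3, 26.0 and 32.1 in control hearts, with an interaction of 0.64 ± 0.14 SE. H2afx, the histone variant marked at DNA breaks, was at 8.56, 9.19 and 8.86 CPM in busulfan plus AOS hearts, 7.58, 6.32 and 6.38 in busulfan hearts, 7.31, 6.34 and 6.76 in AOS hearts and 9.52, 9.11 and 7.65 in control hearts, with an interaction of 0.76 ± 0.20 SE. In Acad12 and H2afx every busulfan plus AOS and control library lay above every busulfan and AOS library, and in Hr the busulfan and control libraries overlapped.

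The other genes of the 12 with a positive interaction were Rtl8c (1.63), Tubb2a (0.55) and Ckap4 (0.54), beside genes already described. Rtl8c, a gene of retroviral origin, was at 7.43, 8.88 and 7.94 CPM in busulfan plus AOS hearts and 2.35, 4.78 and 2.27 in busulfan hearts, against 5.78, 7.31 and 5.18 in AOS hearts and 8.16, 7.29 and 6.67 in control hearts. Its busulfan libraries were the low ones, and near-identical copies make its count uncertain. Tubb2a, a beta-tubulin, was at 78.1, 70.5 and 80.2 CPM in busulfan plus AOS hearts, 54.0, 61.5 and 64.7 in busulfan hearts, 46.8, 40.0 and 39.6 in AOS hearts and 49.8, 49.5 and 46.5 in control hearts. Its order was busulfan plus AOS, busulfan, control and AOS, and only control and AOS overlapped. Ckap4, a protein that shapes ER sheets, was at 61.5, 50.1 and 59.5 CPM in busulfan plus AOS hearts and 44.7, 50.9 and 44.1 in busulfan hearts, against 49.1, 46.0 and 46.8 in AOS hearts and 56.4, 58.5 and 53.9 in control hearts. The busulfan pair overlapped, while all AOS libraries lay below all control libraries (AOS difference 0.29 after busulfan and -0.25 without it).

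Ripor2 (chromosome 13, 24501524 to 24733806), an inhibitor of the small GTPase RhoA, had the smallest p of all tested genes. It was at 3.85, 3.63 and 2.75 CPM in busulfan plus AOS hearts, 7.67, 5.71 and 8.04 in busulfan hearts, 8.84, 10.6 and 13.9 in AOS hearts and 7.03, 4.17 and 4.31 in control hearts. Busulfan plus AOS libraries were the lowest and AOS libraries the highest of the 12, and neither pair overlapped. The AOS difference was -1.06 after busulfan and 1.11 without it, which gave an interaction of -2.17 ± 0.37 SE (edgeR unadjusted p = 0.000131, adjusted p = 1, DESeq2 adjusted p = 0.00172). Over 25 alternatives it lay between -2.47 and -1.23.

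Csprs and Ube2e2 had the same pattern of opposite directions without overlap. Csprs, a gene of a repeated cluster whose count is uncertain for that reason, was at 0.996, 2.32 and 1.60 CPM in busulfan plus AOS hearts, 8.54, 8.79 and 3.67 in busulfan hearts, 6.41, 14.1 and 7.18 in AOS hearts and 2.61, 0.260 and 5.20 in control hearts, with an interaction of -3.89 ± 1.05 SE. Ube2e2, a ubiquitin-conjugating enzyme, was at 29.4, 28.7 and 26.3 CPM in busulfan plus AOS hearts, 29.6, 31.5 and 39.1 in busulfan hearts, 38.9, 33.9 and 39.2 in AOS hearts and 26.3, 23.7 and 29.4 in control hearts, with an interaction of -0.74 ± 0.18 SE on the counts. On the deposited FPKM its interaction was -0.15 (log2 of FPKM plus 0.1), so its value depended on which of the deposited measures was used.

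In a further set of genes the difference was larger in the pair with busulfan. Ift81, a carrier of tubulin into cilia, was at 37.4, 46.5 and 52.6 CPM in busulfan plus AOS hearts, 127, 90.7 and 145 in busulfan hearts, 125, 50.4 and 129 in AOS hearts and 94.0, 86.3 and 93.4 in control hearts. The busulfan plus AOS libraries and AOS replicate 2 were low, the other 8 high, and the interaction was -1.56 ± 0.43 SE. Mblac2, a protein of the metallo-beta-lactamase family, was at 7.77, 11.8 and 8.47 CPM in busulfan plus AOS hearts and 16.9, 15.7 and 16.0 in busulfan hearts, against 17.3, 14.1 and 14.9 in AOS hearts and 14.6, 11.8 and 14.4 in control hearts, with an interaction of -0.98 ± 0.24 SE. Vwa3a and Dph5, an enzyme that modifies elongation factor 2, had interactions of -1.02 and -0.85. In Pign, an enzyme of membrane anchor synthesis, Atp8a2, a phospholipid flippase, and the zinc finger gene Zfp322a the AOS differences after busulfan were -0.28, -0.43 and -0.50, smaller in size than the 0.45, 0.89 and 0.53 without busulfan.

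Kap, the kidney androgen-regulated protein gene, was detected in 9 of the 12 libraries. It was at 0, 0 and 0 CPM in busulfan plus AOS hearts, 0.959, 7.17 and 1.66 in busulfan hearts, 27.2, 18.3 and 35.7 in AOS hearts and 1.59, 21.0 and 11.9 in control hearts. All 3 libraries at 0 were those of busulfan plus AOS, so no fold change is given. DESeq2 called it (adjusted p = 0.000841), and edgeR did not (unadjusted p = 0.00241, adjusted p = 1). The fifth DESeq2 call was the unnamed gene model BGIG10090_45096, chosen after its values were seen (DESeq2 adjusted p = 0.000841, edgeR unadjusted p = 0.0389). It was at 0, 0 and 29.3 CPM in busulfan plus AOS hearts, 0 in all 3 busulfan hearts, 0, 25.1 and 32.8 in AOS hearts and 45.1, 69.6 and 37.1 in control hearts. A single busulfan plus AOS library held it, and no fold change is given for it either.

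Among the 432 genes at an unadjusted p under 0.05, 91.7% had AOS differences of opposite sign after and without busulfan, against 31.3% of all tested genes. These 432 genes were chosen by the gap between the same differences, which favours opposite signs, so the share is a description only. The difference after busulfan and that without it share no library, and over the 14687 genes they had a Pearson correlation of 0.398, a description across genes that are not independent replicates. The group farthest from the mean of the other 3 was busulfan plus AOS in 39.8% of the 432 genes, busulfan in 16.7%, AOS in 13.0% and control in 30.6%. Over all tested genes these shares were 41.5% for busulfan plus AOS, 14.2% for busulfan, 10.7% for AOS and 33.6% for control. In the unfolded protein response list busulfan plus AOS was that group in 16 of 21 members (76.2%). A high share was not particular to this list. Among lists other than cell and tissue markers, it was 95% in fatty acid oxidation and 92% in oxidative phosphorylation genes. It was 85.7% in class II antigen presentation, 80% in interferon response and 78.6% in inflammatory cytokine and adhesion genes. The remaining lists of this kind had lower shares, down to 5% in proteasome genes. All 3 busulfan plus AOS libraries lay above the 3 busulfan libraries in 1542 genes (10.5%), and all 3 AOS libraries above the 3 control libraries in 771 (5.25%).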

How the data were processed

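RNA from heart was sequenced for 12 libraries. Estimated counts per gene were deposited by the authors, and 19.7% to 22.8% of a library's values were not whole within 0.005. The deposited FPKM values carry no unit per the file headers and were taken as FPKM because 1097 genes above 50 in all libraries gave nearly the same implied length in each (median variation 0.457%). Per the submitters' processing notes reads were placed on mm10. Which aligner, counter, annotation and strand setting were used is not given in the sources used, so reads of overlapping genes cannot be told apart. Group codes in the titles were read through the series design text, HBA0 as its B0. Library totals ran from 9929772 to 13620815 estimated counts.

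Counts were rounded, which changed a total by at most 18.1, filtered with filterByExpr, which left out 4559 genes, scaled with TMM factors and tested with edgeR's quasi-likelihood method (edgeR 4.0.16 in R 4.3.3) on 4 group means. Adjusted p-values are Benjamini-Hochberg over all tested genes. Standard errors follow from the log2 value and its F statistic (size over root F). The fit was also run on simulated counts drawn with edgeR's own spread per gene. These held no tissue differences between libraries, so they cannot show how the test behaves on the present data. The common biological coefficient of variation was 29.1%. DESeq2 1.42.0 and limma 3.58.1 were among 25 alternatives. Values per library are TMM-scaled CPM, and list levels are mean log2 CPM with a prior count of 0.5.

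The contrast and the gene lists were chosen with earlier results of these data known. Named genes are the 12 with the smallest p on each side of 0 with a group mean of at least 5 CPM and a settled symbol, and up to 3 members of each list at an unadjusted p under 0.05. The remaining unfolded protein response members and their split by role were added after their values were seen. A gene that the rule names is not reported here. Coordinates and promoters are from RefSeq GRCm38, the assembly of mm10, matched by gene identifier for 14093 tested genes.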

Additional observations from a re-analysis of the deposited data

How the results depend on the processing

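The count of 0 genes past the threshold held in edgeR and limma under 24 of 25 alternatives, and DESeq2 called 5. Leaving out any 1 library gave 0 called, with 284 to 1049 genes at an unadjusted p under 0.05. Other counts at that p were 1513 in limma-voom with library weights, 829 with the atrial covariate and 735 with the adipocyte covariate. The median interaction of the unfolded protein response list was 0.40 in limma-voom with library weights, a setting that moved it by more than the spread between replicates, and 0.44 to 0.55 with 1 library left out. Its members at an unadjusted p under 0.05 numbered 10 to 16 over all alternatives and 11 with library totals in place of TMM. The same replicate numbers do not pair the samples, as correlations of deviations between same-numbered libraries ran from -0.425 to 0.513. With a replicate block 0 genes were called, 380 were at an unadjusted p under 0.05, and the list median was 0.53 with 12 members at that p. Canx was at -0.063 with library weights and between -0.042 and 0.126 with 1 library left out, below 0 when busulfan plus AOS replicate 2, AOS replicate 2 or control replicate 3 was missing (-0.0052, -0.042 and -0.0084). Sel1l ran from -0.166 to 0.047 with 1 library left out, above 0 when busulfan replicate 3 or AOS replicate 2 was missing (0.047 and 0.0082). The cause was not tested. With 3 libraries a group, the test has little reach for interactions of small size, and genes of a few CPM rest on few counts.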

Other observations

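Markers of other tissues had wide interactions of their own, with none of these lists holding a member at an unadjusted p under 0.05. The 7 liver genes all had a positive interaction (100%, beside 46.1% of all tested genes), with a median of 3.69. Albumin, Alb, reached 871 FPKM in busulfan plus AOS replicate 2 and 188 in replicate 3, against 5.10 to 31.6 in busulfan hearts, 17.95 to 90.2 in AOS hearts and 1.62 to 86.6 in control hearts. White adipocyte markers had a negative interaction in 10 of 11 members, with a median of -1.16 that changed sign in 4 of 25 alternatives. Their median AOS difference was 0.65 after busulfan and 2.46 without it. Erythroid markers were positive in 7 of 7 members, with a median of 0.76, while 12 endothelial markers had a median of -0.04 and differed little between libraries, at 387 to 519 summed FPKM in all 12.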
